A study of Homo sapiens with 6 samples.

Results

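Neural, glial and progenitor lineage genes were examined as a set of 38 genes, chosen by name as markers and regulators of neural stem cells, astrocytes, oligodendrocytes and neurons, out of 58884 genes in the deposited table. The set was chosen with earlier results of these data known. Each symbol matched a single row. The cells were DBTRG, an established human glioblastoma cell line of wild-type genotype per the labels, kept for 5 days as a flat 2D culture on rigid dishes or as a 3D culture in a soft gel. Both groups share the line, the culture time and the RNA protocol. Each group had 3 libraries of bulk RNA, with 20911363 to 25901499 counts. The labels do not state whether replicate libraries are separate cultures. The p-values therefore reflect library-to-library spread alone, which may be technical. In bulk RNA, fewer cells expressing a gene and less RNA of it per cell cannot be told apart.

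The brain's main cell types descend from neural stem cells, in which SOX2 and related transcription factors hold the progenitor state. Commitment then follows lineage factors such as OLIG2 and SOX10 for oligodendrocytes, NFIA and SOX9 for astrocytes, and proneural factors for neurons. Glioblastoma cells often express a mixture of these programmes, and several of the genes are used to describe glioma stem-like cells.

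The labelled cell type was checked first. VIM, an intermediate filament of mesenchymal and immature glial cells, and CD44, a hyaluronan receptor, were abundant in each library at 2448 to 3887 and 2480 to 3345 CPM (counts scaled for library size, with TMM factors), and NES, the neural progenitor filament nestin, stood at 145.8 to 261.6 CPM. Of 8 genes chosen to mark the line, GFAP among them, 3 were lower in the soft gel and 1 higher. The shares were 37.5% and 12.5%, beside 13.2% and 15.4% of all tested genes. The lower genes were VIM (log2 fold change -0.48, edgeR adjusted p = 0.0172), NES (-0.56, edgeR adjusted p = 0.0211) and the growth factor receptor EGFR (-0.60, edgeR adjusted p = 0.00574). CD44 was higher (0.33, edgeR adjusted p = 0.0371). The groups of these called genes did not overlap. Over the 8 genes, all soft gel libraries lay below all rigid dish libraries for 4 (21.1% of all tested genes) and above them for 1 (23.5%). GFAP, the classical astrocyte filament, was close to the detection limit, at 0.314 to 1.58 CPM, where 3 counts correspond to 0.112 to 0.141 CPM. Summed levels of the markers of other cell types ranged from 1.42 to 176.2 CPM. The summed level of 12 microglia and leukocyte markers was 1.42 to 2.58 CPM on the rigid dish and 3.24 to 3.58 CPM in the soft gel. Of 3 members tested, ITGAM was higher (33.3%, beside 15.4% of all tested genes). Summed levels of 8 endothelial markers were 6.23 to 7.60 and 5.68 to 6.90 CPM, and those of 8 epithelial markers 6.32 to 9.28 and 4.14 to 5.91 CPM. The 10 pericyte and fibroblast markers summed to 56.7 to 64.0 CPM on the rigid dish and 37.4 to 44.1 CPM in the soft gel. Of 7 tested, 3 were lower and 1 higher (42.9% and 14.3%, beside 13.2% and 15.4% of all tested genes). DCN had 0 counts in all libraries. The 10 melanocyte and Schwann cell markers summed to 119.6 to 176.2 and 127.8 to 153.4 CPM, nearly all of it PMP22, and TYR had 0 counts. The part of these markers in the results below was not tested.

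Levels per length were compared in TPM (transcript abundance corrected for length, as the authors deposited it). The set spanned a wide range of expression, from genes among the line's abundant transcripts to lineage-defining genes without reads. CLU, the secreted chaperone clusterin, was the highest member at 641.9 ± 73.6 TPM on the rigid dish and 887 ± 55.0 TPM in the soft gel (SD, n = 3 each). FABP7, the brain fatty acid binding protein of radial glia, followed at 234 ± 29.9 and 218 ± 21.0 TPM, with overlapping groups. NRCAM, a neuronal cell adhesion molecule, was the third, at 87.5 ± 18.7 and 291 ± 64.5 TPM. GLUL, glutamine synthetase, and CNP, a myelin enzyme, lay next, at 69.7 ± 8.87 and 65.2 ± 6.39 TPM on the rigid dish, which is within their spread of each other. At the other end, OLIG2, the master factor of the oligodendrocyte lineage, had 0 counts in all 6 libraries, which allows up to 3 counts per library. DCX, the microtubule protein of migrating neuroblasts, had 1 count in all. SOX10, OLIG1, NCAN and CHL1 had 5, 5, 2 and 6 counts summed over the 6 libraries.

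**Figure D1:**
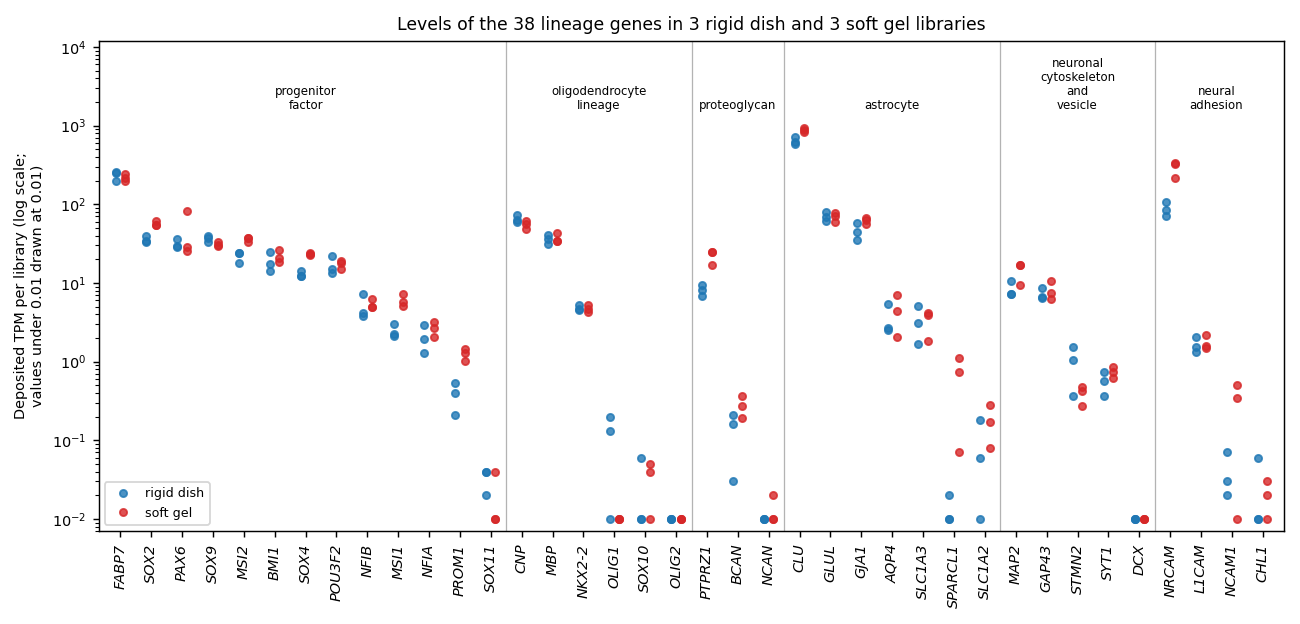
Deposited TPM of the 38 genes in each library on a log scale, grouped by role, with rigid dish libraries in blue and soft gel libraries in red. CLU, FABP7 and NRCAM lie highest, OLIG2 and DCX lie at the floor, and soft gel 3 stands apart for PAX6 (83.1 TPM).

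Differences were tested with the quasi-likelihood F-test of edgeR over all 16098 genes that passed a low-count filter, and a gene was called at a Benjamini-Hochberg adjusted p below 0.05. Of the 38 genes, 28 passed the filter and 10 did not. Of the 28, 10 were higher in the soft gel (NRCAM, PTPRZ1, MSI1, SOX4, MAP2, NFIA, MSI2, SOX2, CLU and GJA1), 1 was lower (CNP) and 17 were not called. The share called higher was 35.7%, beside 15.4% of all tested genes, and the share called lower 3.57%, beside 13.2%. The median log2 fold change of the 28 was 0.33, beside 0.05 over all tested genes. All soft gel libraries lay above all rigid dish libraries for 12 of the 28 (23.5% of all tested genes), and below them for 3 (21.1%). The 12 were the 10 called genes with PROM1 and SLC1A2, and the 3 were CNP, SOX9 and PAX6. NRCAM and PTPRZ1 alone among the 28 were called with a change of at least 2-fold, a rise that 6.71% of all tested genes met. A fall of that size was called for 0 of the 28 and for 1.95% of all tested genes. Of the 11 calls, those of NRCAM, PTPRZ1, SOX4, SOX2, MSI1 and MSI2 were kept under all 15 alternatives run. Those of NFIA, CLU, GJA1, MAP2 and CNP were each lost without rigid dish 2, rigid dish 3, soft gel 1 or soft gel 2. Without these libraries in turn, the number of all called genes also fell, from 4603 to 2026, 3180, 1963 and 1803. The log2 fold changes behind the lost calls kept their sign under all alternatives. NFIA, MAP2, GJA1 and CNP were also not called on either TPM scale, CLU and GJA1 without the low-count filter, and GJA1 with DESeq2 or its size factors. Over the 15 alternatives the adjusted p ran from 0.00701 to 0.476 for NFIA, from 0.00749 to 0.0905 for CLU, from 0.00997 to 0.23 for GJA1, from 0.000252 to 0.117 for MAP2 and from 0.0121 to 0.251 for CNP. The number of the 28 called higher was 6 without soft gel 1 or without soft gel 2, and the number called lower ran from 0 to 4 on leaving out 1 library.

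**Figure D2:**
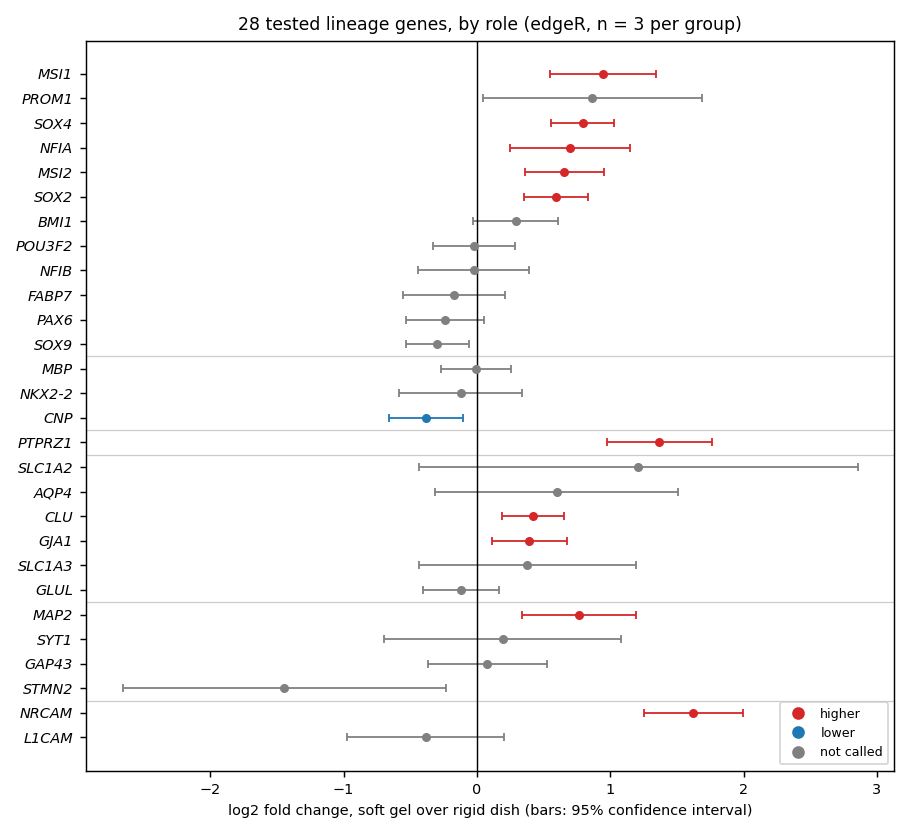
Log2 fold change (soft gel over rigid dish) of the 28 tested genes with 95% confidence intervals, ordered within 6 roles from progenitor factors at the top to adhesion genes at the bottom. NRCAM (1.62) and PTPRZ1 (1.37) lie furthest to the right, and the widest intervals are those of the scarce genes SLC1A2 and STMN2.

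Among the 28 genes that passed the filter, the largest rises were those of a neural adhesion molecule and of a receptor phosphatase that binds such molecules. NRCAM, an L1-family adhesion molecule of axons and nodes of Ranvier, stood at 288.9, 286.5 and 243.5 CPM in rigid dish 1, 2 and 3 and at 943.5, 943.0 and 637.2 CPM in soft gel 1, 2 and 3. The groups did not overlap, and soft gel 3 was the lowest of its group. Its log2 fold change was 1.62 (SE 0.166, edgeR adjusted p = 0.000545), a 3.08-fold rise. PTPRZ1, a receptor-type tyrosine phosphatase that carries chondroitin sulfate chains and marks oligodendrocyte progenitors and many gliomas, stood at 23.6, 33.8 and 28.7 CPM on the rigid dish and at 83.1, 80.4 and 58.8 CPM in the soft gel. Again soft gel 3 was lowest, and still above each rigid dish library. The log2 fold change of PTPRZ1 was 1.37 (SE 0.176, edgeR adjusted p = 0.00139). Both genes lie on chromosome 7 (hg38), NRCAM at 108147623 to 108456717 on the minus strand with 41 merged exons, and PTPRZ1 at 121873089 to 122062036 on the plus strand with 30.

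Of the other adhesion and proteoglycan genes in the set, L1CAM was tested and not called, and 4 were below the filter. L1CAM, the founding member of NRCAM's family, stood at 3.67, 5.43 and 4.44 CPM on the rigid dish and at 2.43, 3.90 and 4.04 CPM in the soft gel, with overlapping groups. Its log2 fold change was -0.38 (95% interval -0.98 to 0.21, edgeR adjusted p = 0.29). CHL1, the close homologue of L1, had 2 counts on the rigid dish and 4 in the soft gel, and NCAM1, the neural cell adhesion molecule, had 7 and 11. The 95% counting intervals of their ratios, 0.295 to 22.7 for CHL1 and 0.572 to 4.92 for NCAM1, include both no change and the rise of NRCAM. BCAN, the brain proteoglycan brevican, had 16 and 24 counts, a ratio of 1.54 with a 95% counting interval of 0.787 to 3.11, and an antisense transcript with a mean of 1226.8 counts shares 328 exonic bases with it, so its own level is uncertain. NCAN, neurocan, had 0 counts on the rigid dish and 2 in the soft gel.

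Promoter sequence is shown for 4 of the 10 genes called higher, to set genes that rose in the same comparison side by side. RefSeq (GRCh38.p14) windows were found for 27 of the 38 genes, 68 windows in all, since a gene can have several starts. The 250 bases before each start were searched on both strands for TATAAA (the core promoter element bound by TBP), CCAAT (the element bound by NF-Y), GGGCGG (GC box), TGANTCA (AP-1), TGACGTCA (CRE), AACAAT (SOX) and CAGCTG (E-box), and overlapping matches were allowed. The 4 stretches shown lie outside annotated exons and were picked after the values and matches were seen, for the 2 largest rises among the tested genes (NRCAM and PTPRZ1) and for SOX2 and MSI2, whose calls were kept under all alternatives. Capitals mark matches. They are NRCAM at its innermost start (chr7:108243386-108243635, minus strand), PTPRZ1 (chr7:121872911-121873088, plus strand, ending 73 bases before the start), SOX2 (chr3:181711675-181711923, plus strand) and MSI2 at its outer start (chr17:57255601-57255850, plus strand).
NRCAM: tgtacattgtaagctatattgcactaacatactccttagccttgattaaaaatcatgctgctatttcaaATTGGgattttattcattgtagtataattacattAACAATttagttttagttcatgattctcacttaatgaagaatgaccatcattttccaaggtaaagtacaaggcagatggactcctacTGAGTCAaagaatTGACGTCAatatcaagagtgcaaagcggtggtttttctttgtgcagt
PTPRZ1: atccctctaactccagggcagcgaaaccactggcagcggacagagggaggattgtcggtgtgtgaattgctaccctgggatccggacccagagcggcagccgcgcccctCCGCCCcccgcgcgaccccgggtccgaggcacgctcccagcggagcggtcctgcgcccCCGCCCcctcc
SOX2: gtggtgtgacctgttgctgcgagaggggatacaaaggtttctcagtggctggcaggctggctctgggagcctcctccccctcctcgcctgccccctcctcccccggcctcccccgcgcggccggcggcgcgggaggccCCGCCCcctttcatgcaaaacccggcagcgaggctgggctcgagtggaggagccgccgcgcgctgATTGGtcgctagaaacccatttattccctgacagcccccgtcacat
MSI2: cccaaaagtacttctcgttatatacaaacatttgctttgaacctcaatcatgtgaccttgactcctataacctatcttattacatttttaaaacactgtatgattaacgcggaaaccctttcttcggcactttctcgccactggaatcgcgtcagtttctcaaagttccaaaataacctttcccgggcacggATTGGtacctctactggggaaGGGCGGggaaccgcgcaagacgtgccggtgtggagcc
The NRCAM window shown held a CCAAT box, a SOX match, an AP-1 match beginning 60 bases before the start and a CRE beginning 47 bases before it, at 33.2% GC. The other 3 windows shown held GC boxes, 2 of them in PTPRZ1, and SOX2 and MSI2 each held a CCAAT box. NRCAM's outer window (78.4% GC) held GC boxes alone, and its middle window (42.4% GC) a CCAAT box alone. The inner window of MSI2 held no match. Calls of SOX4 and MSI1 were also kept under all alternatives, but the SOX4 window lies inside an annotated exon and MSI1 had no window. The SOX4 window held CCAAT boxes and E-box matches. Which starts are used in these cells was not examined. Among all 35116 RefSeq windows of 250 bases, 6.57% held the AP-1 letters, 1.65% the CRE, 8.98% the SOX letters, 32.0% a CCAAT box, 42.6% a GC box, 14.0% the E-box and 10.7% a TATA box. Of the 68 windows of these genes, 5 held the AP-1 letters, 2 the CRE, 10 the SOX letters, 24 a CCAAT box, 31 a GC box, 8 the E-box and 4 a TATA box. A match is a description of the letters and shows no binding.

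Among transcription factors of the progenitor state in the set, SOX2 and SOX4 rose, whereas SOX9, PAX6 and POU3F2 were not called. SOX3, outside the set and named after its value was seen, had 224.0 to 276.0 CPM on the rigid dish and 163.1 to 229.3 CPM in the soft gel. Its groups overlapped and it was not called (log2 fold change -0.38, edgeR adjusted p = 0.09). The progenitor filament gene NES, outside the set, was lower in the soft gel, at 187.4, 253.2 and 261.6 CPM on the rigid dish and 172.7, 159.0 and 145.8 CPM in the soft gel. SOX2, which maintains neural stem cells, stood at 60.9, 59.8 and 65.9 CPM on the rigid dish and at 99.3, 89.3 and 92.6 CPM in the soft gel. SOX4, a SoxC factor of neuronal and glial precursors, stood at 53.1, 54.4 and 59.4 CPM and at 93.5, 100.1 and 95.9 CPM. Both genes were tightly grouped within each condition and did not overlap between them. Their log2 fold changes were 0.59 for SOX2 (SE 0.106, edgeR adjusted p = 0.00509) and 0.80 for SOX4 (SE 0.105, edgeR adjusted p = 0.00154). SOX2 is a gene of 1 exon inside the noncoding gene SOX2-OT on chromosome 3 (181711924 to 181714436, plus strand), and SOX4 a gene of 1 exon on chromosome 6 (21592768 to 21598619, plus strand). SOX11, the other SoxC factor in the set, had 18 counts on the rigid dish and 7 in the soft gel (ratio 0.40, 95% counting interval 0.141 to 1.004), below the filter.

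SOX9, a factor of glial fate, lay the other way, at 97.0, 109.3 and 104.4 CPM on the rigid dish and 88.1, 79.5 and 85.4 CPM in the soft gel. The groups did not overlap, but the gene was not called (log2 fold change -0.30, 95% interval -0.54 to -0.06, edgeR adjusted p = 0.0628). It passed with DESeq2 size factors (adjusted p = 0.0479), with DESeq2 (0.0337) and without rigid dish 1 (0.0312) or soft gel 3 (0.0461), and its adjusted p reached 0.266 under other alternatives. PAX6, a paired-box factor of radial glia, had 40.3 to 52.5 CPM on the rigid dish and 36.4 to 39.5 CPM in the soft gel, also without overlap (log2 fold change -0.24, 95% interval -0.53 to 0.06, edgeR adjusted p = 0.192). PAX6 shares 5241 exonic bases with ELP4 on the opposite strand, and no strand setting is stated. POU3F2, the neural factor BRN2, had 53.8 to 69.3 CPM and 52.9 to 64.8 CPM, with overlapping groups (log2 fold change -0.02, 95% interval -0.33 to 0.29).

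Both Musashi genes and 1 of the 2 nuclear factor I genes in the set were called higher. MSI1 and MSI2 encode Musashi proteins, RNA-binding regulators of translation in neural progenitors. MSI1 stood at 3.93, 4.52 and 4.75 CPM on the rigid dish and at 8.89, 7.71 and 8.87 CPM in the soft gel. MSI2 stood at 73.7, 73.4 and 59.7 CPM and at 112.7, 117.6 and 95.8 CPM. The groups of neither gene overlapped, and their log2 fold changes were 0.95 (SE 0.177, edgeR adjusted p = 0.0058) and 0.66 (SE 0.131, edgeR adjusted p = 0.00763). NFIA and NFIB encode nuclear factor I proteins that switch progenitors towards glia. NFIA stood at 7.78, 5.73 and 5.42 CPM on the rigid dish and at 9.51, 11.98 and 9.29 CPM in the soft gel, with no overlap (log2 fold change 0.70, SE 0.20, edgeR adjusted p = 0.03). Its call was lost without rigid dish 2 (0.115), rigid dish 3 (0.118), soft gel 1 (0.0756) or soft gel 2 (0.125). NFIB had 19.3 to 27.1 CPM and 17.9 to 25.7 CPM, with overlapping groups (log2 fold change -0.02, 95% interval -0.44 to 0.39). Whether NFIA and NFIB differ in their response was not tested.

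The remaining progenitor genes were not called. BMI1, a Polycomb protein of stem cell self-renewal, had 28.7 to 37.2 CPM on the rigid dish and 36.1 to 44.7 CPM in the soft gel, so the groups overlapped (log2 fold change 0.29, 95% interval -0.03 to 0.61, edgeR adjusted p = 0.146). The read-through gene COMMD3-BMI1 shares 1000 exonic bases with it and held a mean of 18.3 counts. PROM1, the surface protein CD133 that is widely used to sort glioma stem-like cells, was scarce, with 25, 15 and 29 counts on the rigid dish and 41, 54 and 29 in the soft gel. In CPM its soft gel libraries (1.36 to 2.19) lay above its rigid dish libraries (0.646 to 1.30), and the log2 fold change was 0.87 (95% interval 0.05 to 1.69, edgeR adjusted p = 0.0997). PROM1 shares 166 exonic bases with FGFBP2 on the same strand. FGFBP2 held a mean of 36.7 counts, beside 32.2 for PROM1, so reads of both genes cannot be told apart there. On the TPM scales PROM1 was called higher with limma, at 0.70 for log2(TPM + 1) (adjusted p = 0.022) and 1.53 for log2(TPM + 0.1) (adjusted p = 0.0312), and under the other alternatives the adjusted p ran up to 0.311. FABP7 had 87.9 to 136.9 CPM and 92.7 to 115.5 CPM, with a log2 fold change of -0.17 (95% interval -0.55 to 0.21). Its lowest value was that of rigid dish 1, without which it was called lower (-0.35, edgeR adjusted p = 0.0491, up to 0.769 under the other alternatives).

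**Figure D3:**
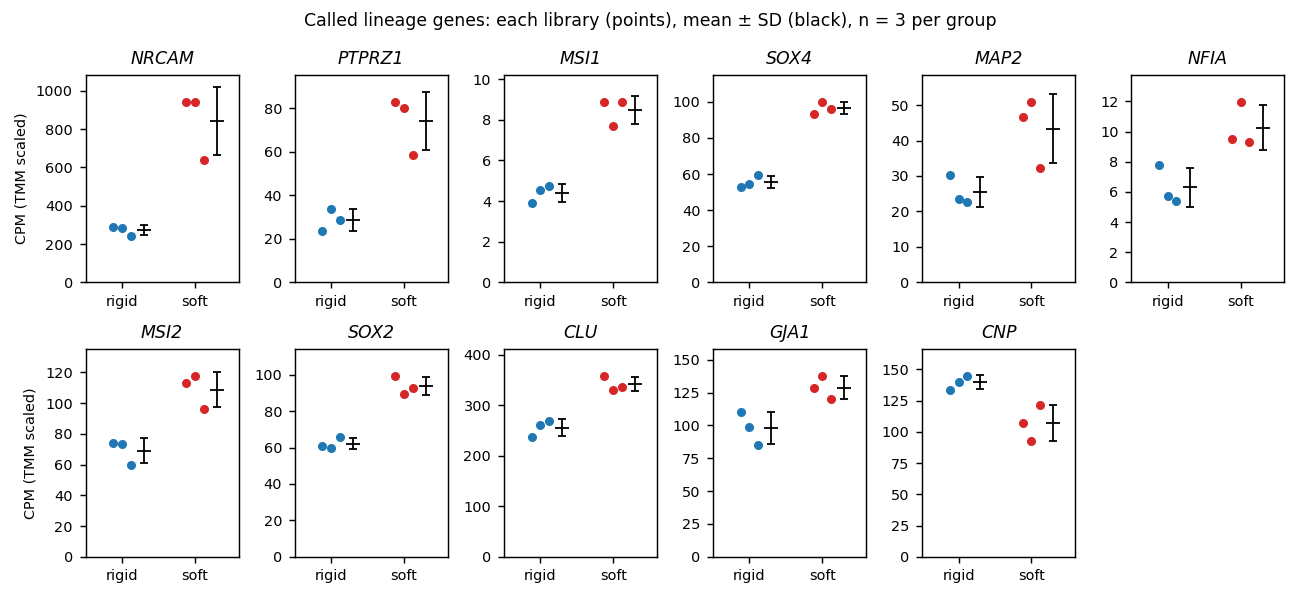
CPM of the 11 called genes in each library (points), with the mean and SD of 3 libraries per group in black, ordered from the largest rise (NRCAM) to the single fall (CNP). No panel shows overlapping groups, and soft gel 3 is the lowest soft gel library for NRCAM, PTPRZ1, MAP2, NFIA, MSI2 and GJA1.

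Of the 7 astrocyte genes, 6 were tested, of which CLU and GJA1 were called higher and 0 lower. These shares were 33.3% and 0%, beside 15.4% and 13.2% of all tested genes, and rest on few genes. CLU stood at 236.2, 260.3 and 269.2 CPM on the rigid dish and at 357.8, 330.3 and 336.5 CPM in the soft gel, without overlap. Its log2 fold change was 0.42 (SE 0.104, edgeR adjusted p = 0.0176), lost without rigid dish 2 (0.0763), rigid dish 3 (0.0545), soft gel 1 (0.0905) or soft gel 2 (0.0572). GJA1, the astrocyte gap junction protein connexin 43, stood at 109.8, 99.1 and 85.2 CPM and at 128.5, 137.6 and 120.3 CPM, also without overlap. Its log2 fold change was 0.39 (SE 0.124, edgeR adjusted p = 0.0416), and only leaving out rigid dish 1 kept the call among the 6 libraries (0.0133 without it, 0.0617 to 0.23 without another). GLUL had 80.8 to 84.2 CPM on the rigid dish and 65.2 to 87.3 CPM in the soft gel, with overlap (log2 fold change -0.12, 95% interval -0.40 to 0.17). The water channel AQP4 had 13 to 33 counts and 23 to 34 counts (log2 fold change 0.60, 95% interval -0.31 to 1.51). The glutamate transporters SLC1A2 and SLC1A3 had 0 to 16 and 37 to 122 counts on the rigid dish and 17 to 21 and 69 to 113 counts in the soft gel. Their log2 fold changes of 1.21 (95% interval -0.43 to 2.86) and 0.38 (-0.44 to 1.19) were not called, although SLC1A3 passed without rigid dish 1 (0.88, edgeR adjusted p = 0.0439, up to 0.952 under the other alternatives).

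SPARCL1, the secreted matricellular protein hevin of astrocytes, was nearly absent from the rigid dish, with 0, 1 and 0 counts in rigid dish 1, 2 and 3. In soft gel it had 48, 19 and 3 counts in libraries 1, 2 and 3, so each soft gel library lay above each rigid dish library, and the soft gel libraries differed widely among themselves. The ratio of summed counts was 72.0, with a 95% counting interval of 12.5 to 2884 that leaves out the spread between libraries. The gene failed the low-count filter, which asks for enough counts in 3 libraries, and without that filter it was called (edgeR adjusted p = 9.42e-08). Of the microglia and leukocyte markers, AIF1 had 0 counts in each rigid dish library and 9, 3 and 1 in soft gel 1, 2 and 3, and ITGAM had 8, 2 and 3 and then 22, 31 and 19 counts. Reads of 405 olfactory receptor genes, a measure of background reads, summed to 8.38 to 11.7 CPM on the rigid dish and 15.9 to 22.0 CPM in the soft gel, and the part of either in the values of scarce genes was not tested.

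Of 3 tested oligodendrocyte lineage genes, 0 were called higher and 1 lower (33.3%), beside 15.4% and 13.2% of all tested genes. PTPRZ1, which also marks oligodendrocyte progenitors, was counted with the proteoglycans and was higher (log2 fold change 1.37). CNP stood at 133.7, 140.3 and 144.8 CPM on the rigid dish and at 107.0, 92.6 and 121.9 CPM in the soft gel, without overlap (log2 fold change -0.38, SE 0.124, edgeR adjusted p = 0.0453). The call was lost with upper quartile factors (0.0654) and without rigid dish 2 (0.136), rigid dish 3 (0.0707), soft gel 1 (0.134) or soft gel 2 (0.165). CNP shares 401 exonic bases with DNAJC7 on the opposite strand, whose own log2 fold change was -0.35 (edgeR adjusted p = 0.065), so reads of both genes cannot be told apart there. MBP, myelin basic protein, had 107.0 to 115.3 CPM and 99.8 to 124.4 CPM, with overlap (log2 fold change -0.01, 95% interval -0.27 to 0.25). NKX2-2, a homeodomain factor of oligodendrocyte progenitors, had 154 to 186 counts and 133 to 156 counts (log2 fold change -0.12, 95% interval -0.58 to 0.34). OLIG1 had 3, 2 and 0 counts on the rigid dish and 0 in each soft gel library, and SOX10 had 1 count and 4 counts. SOX10 shares 89 exonic bases with POLR2F on the opposite strand.

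Of 4 tested neuronal genes, MAP2 alone was called. The shares higher and lower were 25% and 0%, beside 15.4% and 13.2% of all tested genes. MAP2, a microtubule protein of dendrites, stood at 30.3, 23.5 and 22.7 CPM on the rigid dish and at 46.5, 50.9 and 32.3 CPM in the soft gel. The groups were separated by the small gap between rigid dish 1 and soft gel 3. The log2 fold change was 0.76 (SE 0.189, edgeR adjusted p = 0.0179), lost without rigid dish 2 (0.0779), rigid dish 3 (0.0682), soft gel 1 (0.075) or soft gel 2 (0.0832). STMN2, the growth cone protein stathmin-2, had 13, 40 and 40 counts on the rigid dish and 16, 9 and 9 in the soft gel, and rigid dish 1 lay among the soft gel libraries. Its log2 fold change was -1.44 (95% interval -2.66 to -0.23, edgeR adjusted p = 0.0703), and -1.86 without rigid dish 1 (edgeR adjusted p = 0.00935). It also passed without the low-count filter (0.0126), and its adjusted p reached 0.215 under the other alternatives. GAP43, another growth cone protein, had 7.28 to 8.495 CPM and 6.85 to 10.6 CPM (log2 fold change 0.08, 95% interval -0.37 to 0.53). SYT1, the calcium sensor of synaptic vesicles, had 23 to 53 counts and 34 to 63 counts (log2 fold change 0.19, 95% interval -0.70 to 1.08).

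Wider lists of 173 other genes of the same lineages placed the set in context. These lists, too, were chosen with earlier results of these data known, so their shares are no independent support. Of 115 tested, 30 were higher and 18 lower in the soft gel (26.1% and 15.7%), beside 15.4% and 13.2% of all tested genes. Without soft gel 1 the counts were 18 and 14, without soft gel 2 they were 18 and 10, and without rigid dish 2 they were 21 and 10. Among 21 further astrocyte genes 15 were higher and 1 lower (71.4% and 4.76%), with a median log2 fold change of 1.09. They included CRYAB, a small heat shock protein (4.35), and ID4, an inhibitor of proneural factors that also counts in the progenitor list (3.36). The fall was that of the gap junction gene GJB2, from 58.9 ± 14.3 to 32.5 ± 3.64 CPM (log2 fold change -0.86, edgeR adjusted p = 0.0102). Among 35 further progenitor genes 8 were higher and 7 lower (22.9% and 20%). SOX5, a SoxD factor, rose from 6.33 ± 1.08 to 14.9 ± 2.58 CPM (log2 fold change 1.23, edgeR adjusted p = 0.00315), and NFIC, a relative of NFIA, fell from 256.6 ± 14.5 to 146.9 ± 10.4 CPM (-0.80, edgeR adjusted p = 0.00156). HES1, a Notch target, also fell (-1.24).

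In the neuronal list 3 of 26 tested genes were higher and 6 lower (11.5% and 23.1%). The fallen genes included DPYSL5, a collapsin response mediator, from 13.1 ± 2.30 to 3.498 ± 1.00 CPM (log2 fold change -1.91, edgeR adjusted p = 0.0012), and STMN1, a relative of STMN2 that binds tubulin (-0.81, edgeR adjusted p = 0.00411). The 3 risen genes averaged under 5 CPM and were named after their values were seen: NEUROG2, a proneural factor (2.17), DLX2, a factor of interneurons (1.01), and RTN1, a reticulon (0.92). Of 23 tested genes of neural adhesion and guidance, 4 were higher and 3 lower (17.4% and 13%), shares near those of all tested genes. LSAMP, a limbic system adhesion molecule, rose from 52.3 ± 3.35 to 118.6 ± 21.8 CPM (1.18, edgeR adjusted p = 0.00133), and the neurexin NRXN3 rose from 14.6 ± 3.13 to 25.7 ± 3.82 CPM (0.82, edgeR adjusted p = 0.0133). NTM, of LSAMP's own family, fell from 95.2 ± 13.6 to 60.0 ± 7.32 CPM (-0.67, edgeR adjusted p = 0.0103), and the teneurin TENM3 fell as well (-0.64, edgeR adjusted p = 0.00665). The contactin CNTN6 rose from 1.62 to 8.08 CPM (2.32, edgeR adjusted p = 0.000517), and it too was named after its value was seen. In the oligodendrocyte list 1 of 11 tested genes (9.09%) was higher, the membrane glycoprotein GPM6B (0.61, edgeR adjusted p = 0.0195), and 1 was lower, the tetraspanin TSPAN2 (-1.27, named after its value was seen).

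**Figure D4:**
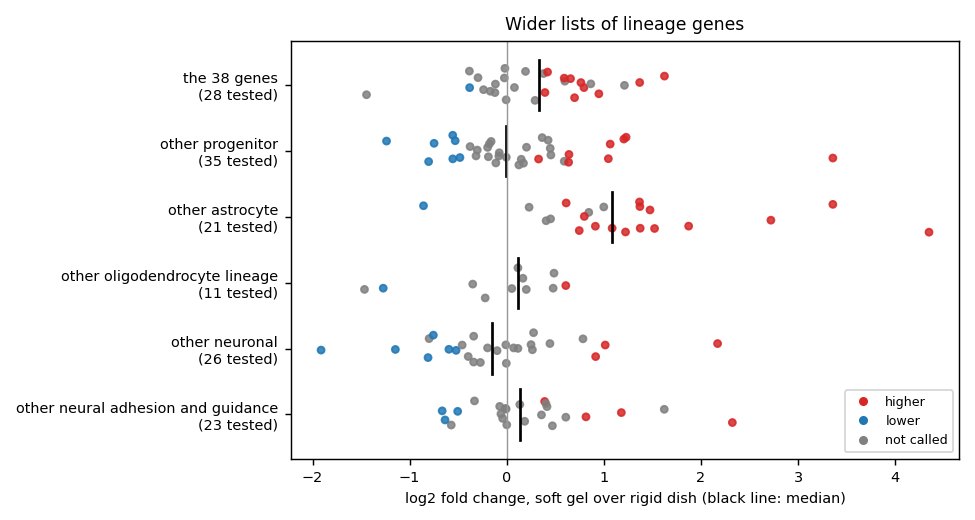
Log2 fold change of tested genes in the set and in 5 wider lists, coloured by call, with each list's median as a black line. The further astrocyte genes lie mostly to the right (median 1.09), whereas the medians of the other 4 wider lists lie between -0.15 and 0.13.

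The set was also laid out by genomic span. Of the 6 tested genes of the set that span 300 kb or more (MAP2, MSI2, NFIA, NFIB, NRCAM and SYT1), 4 were higher in the soft gel. The counts in the shorter bins were 1 of 4 at 100 to 300 kb, 0 of 4 at 30 to 100 kb, 3 of 8 at 10 to 30 kb and 2 of 6 under 10 kb, with no steady order. NFIA spans 597.5 kb, MSI2 428.8 kb, MAP2 310.1 kb and NRCAM 309.1 kb, whereas SOX2 and SOX4 span 2.5 and 5.9 kb. Over all tested genes, 26.2% of 657 genes that span 300 kb or more were higher and 8.68% lower, against 12.4% and 13.2% of 3961 genes under 10 kb. The share higher was 12.5% at 10 to 30 kb, 16.7% at 30 to 100 kb and 19.9% at 100 to 300 kb. The median log2 fold change of the longest and the shortest bin was 0.24 and 0.03. The genes of the set are all protein-coding. Among protein-coding tested genes, 26.2% of 608 genes in the longest bin were higher and 8.88% lower (median 0.20). Under 10 kb, 11.9% of 2509 protein-coding genes were higher and 18.9% lower (median -0.10). The part of span in the rise of single genes was not tested.

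**Figure D5:**
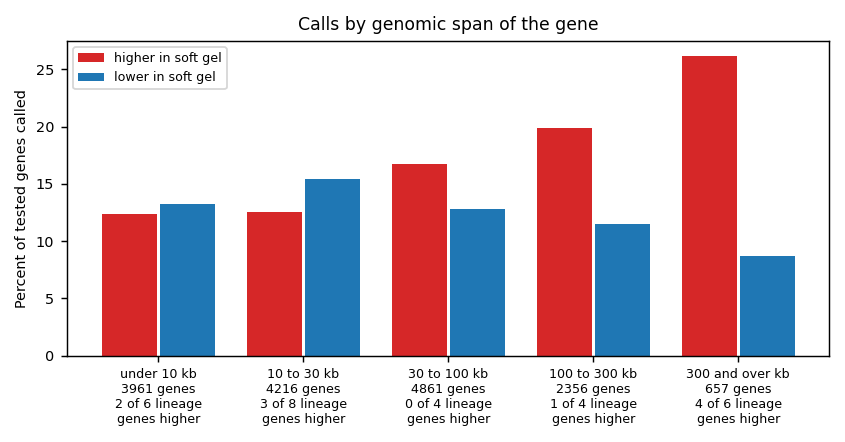
Percent of all tested genes called higher (red) or lower (blue) in the soft gel by genomic span, with the number of genes per bin and of the lineage genes among them under the axis. The share called higher goes from 12.4% under 10 kb to 26.2% at 300 kb and over.

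Counts and deposited TPM values of a gene did not always move together. PAX6 had 25.77 and 29.01 TPM in soft gel 1 and 2 but 83.1 TPM in soft gel 3, while its CPM in the same libraries ran only from 36.4 to 39.5. Its CPM per 1000 TPM was 475 in soft gel 3 and 1330 to 1471 in the other 5 libraries. On log2(TPM + 1) its difference was therefore 0.33 with limma (adjusted p = 0.594), against -0.24 from counts. PROM1 had 0.21 to 0.54 TPM on the rigid dish and 1.03 to 1.43 TPM in the soft gel, with 2339 to 3077 and 1180 to 1699 CPM per 1000 TPM. The division of reads between transcripts, not given in the sources used here, was not examined, and its part in these values was not tested.

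In the authors' deposited table, 10 of the 38 genes had an adjusted p below 0.05 with a higher level in the soft gel and 2 with a lower one. There, 7.87% of 29386 tested genes were higher and 9.26% lower. At that cut-off the deposited table and the edgeR test shared 10 genes. SOX9 (adjusted p = 0.0331) and SPARCL1 (0.000817) passed the cut-off in the authors' deposited table alone, and GJA1 (0.0623 in the authors' deposited table) by edgeR alone. The authors' own flag of significance was stricter. Among the 38 genes it was set for NRCAM, PTPRZ1 and SPARCL1 alone, and not for SOX9.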

How the data were processed

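RNA from 6 DBTRG libraries was analysed. HISAT2, HTSeq and hg38 are named, per the submitters' processing notes, without versions or roles. The authors deposited estimated counts per gene (11.3% to 13.0% of genes per library hold decimals), TPM values and, in the authors' deposited comparison, fold (ratio) values, their log2, and p-values raw and adjusted.

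Counts were rounded, filtered with filterByExpr (minimum count 10), scaled by TMM and tested by quasi-likelihood in edgeR 4.0.16 (R 4.3.3), with p-values adjusted over all tested genes. Fold changes give soft gel relative to the dish, and SE and 95% intervals come from the test statistic. Counting intervals are exact conditional binomial intervals. Counting intervals and the floor of 3 counts cover counting error only, since PCR copies are not independent molecules. Positions came from GENCODE 29 on hg38. The code was tested on simulated data.

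The 38 genes and the wider lists were chosen with earlier results of these data known. Of each wider list, up to 2 higher and 2 lower called genes of at least 5 CPM with the largest change are named, and marker genes, genes sharing exons with the set and those said to be named after their values were seen fall outside that rule. Alternatives were other scaling, filters, a replicate block, DESeq2 1.42.0, limma-voom (limma 3.58.1), limma on log2(TPM + 1) and log2(TPM + 0.1), and leaving out each library.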

Additional observations from a re-analysis of the deposited data

How the results depend on the processing

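The number of genes of the set called lower was the least stable, at 1 in the reported test, 2 with DESeq2 size factors, without the low-count filter, with the replicate block or with DESeq2, and 0 with upper quartile factors or either TPM scale. On leaving out 1 library it ran from 0 to 4, the number called higher from 6 to 12, all called genes from 1803 to 6164, and further lineage genes from 18 to 38 higher and from 10 to 20 lower. All called genes numbered 4603 in the reported test, 2313 with log2(TPM + 1), 2287 with log2(TPM + 0.1), and 1803, 1963 and 2026 on leaving out soft gel 2, soft gel 1 and rigid dish 2.

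Signs changed only for genes that were not called, and the cause was not tested. With upper quartile factors the log2 fold changes were 0.0104 for POU3F2, 0.00317 for NFIB and 0.026 for MBP, and with the filter of 1 CPM, under which STMN2 and SLC1A2 gave no value, 0.0106 for MBP. With log2(TPM + 1) they were 0.0587 for POU3F2, 0.329 for PAX6, 0.116 for NFIB, 0.0437 for MBP and 0.0622 for L1CAM, and with log2(TPM + 0.1) 0.0631, 0.334, 0.143, 0.0448 and 0.0955. On leaving out 1 library they ran from -0.157 to 0.0962 for POU3F2, -0.18 to 0.146 for NFIB, -0.101 to 0.0593 for MBP, -0.126 to 0.146 for GAP43 and -0.153 to 0.409 for SYT1.

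Same-numbered libraries of the groups correlated in their deviations at 0.217, 0.00912 and 0.307. Rigid dish 1 and rigid dish 3 correlated best with the soft gel library of their own number, and rigid dish 2 with soft gel 3. The labels state no pairing, so the numbers were not taken as pairs in the reported test. A replicate block was run as an alternative. With the replicate block, 11 genes of the set were higher and 2 lower, among 6442 called genes. BMI1 (0.29, edgeR adjusted p = 0.0489) and SOX9 (-0.30, edgeR adjusted p = 0.0419) passed only with that block among edgeR fits to all 6 libraries with TMM factors, and 38 further lineage genes were higher and 24 lower. At this depth the 10 genes under the filter allowed no test in the reported fit.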
